A study of Mus musculus with 6 samples.

Results

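The MS4A genes encode small proteins that cross the cell membrane several times, and most of them lie side by side in 1 cluster on mouse chromosome 19. Ms4a1 encodes CD20, the B cell surface protein that takes part in calcium entry after antigen receptor engagement and is the target of B cell depleting antibodies. Other members are known mainly from T cells (Ms4a4b, Ms4a6b) and from macrophages and other myeloid cells (Ms4a6c, Ms4a6d, Ms4a7). Described here are 8 of these genes, Ms4a1, Ms4a4b, Ms4a4c, Ms4a4d, Ms4a6b, Ms4a6c, Ms4a6d and Ms4a7, in B1a cells of the peritoneal cavity (PC). The array held 11 non-control probes whose gene name or description names one of them, out of 55681 non-control probes. There were 3 probes for Ms4a4c, 2 for Ms4a4b and 1 for each of the other 6 genes. The genes were chosen on their case against control differences on these arrays, so each difference is given as a description. Threshold calls of these genes are counted below, and nothing is read from those counts.

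Total RNA of sorted PC B1a cells was hybridized to 6 one-colour Agilent mouse arrays. The 3 case arrays came from mice of genotype p40-/- CD25-/- and the 3 control arrays from p40-/- CD25+/- mice, which keep 1 CD25 allele. CD25 is the interleukin-2 receptor alpha chain, encoded by Il2ra, and p40 is the cytokine subunit encoded by Il12b. All mice were 7-week-old females on the C57Bl/6 background, and both groups lack p40, so the arrays compare loss of CD25 with heterozygosity for it on a p40-deficient background. Each sample was drawn from 3 or more mice, so animals may have been pooled. Nothing states that the 3 arrays of a group came from separate cohorts, so the spread given below is that between these samples and may be technical.

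Values are log2 signals relative to the 75th percentile of the array, and a difference is the mean of the 3 case arrays minus the mean of the 3 control arrays. In intensity, that percentile was between 252 and 272 for control and between 66.5 and 162 for case, so the case arrays were dimmer as a group. Of 18252 genes tested with limma, 643 changed at least 2-fold with an unadjusted p of at most 0.05, and 64.1% of these were higher in case. That share was 46.1% after quantile normalization, 44.6% in the deposited log2 values, 77.4% after scaling on the median of detected probes and 81% after normexp with quantile normalization. The Il2ra probe read 1.62, 1.13 and 1.35 in control and -0.31, -0.59 and 0.86 in case, so case 3 lay closest to the control arrays. The Il12b probe read -1.92 to -2.25 in control and -1.80 to -2.52 in case, well above background on all 6 arrays although both groups lack p40. Whether these probes lie in the deleted parts of the genes is not given in the sources used here. The sorted cells carried the B1a markers Cd5, Itgam and Spn and 17 of 17 B cell markers well above background on all 6 arrays.

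The sequences of the 3 Ms4a4c probes are shown because these probes disagreed. All 60 bases are given for the probe that starts at base 447 of the transcript, and 30 bases each for those that start at bases 825 and 959. Capitals mark an alternating run of G and T, of which 20 of 28 bases are shown. In mm9 the probes lie on the plus strand at chr19:11493486-11493545, chr19:11500839-11500898 and chr19:11500973-11501032.
Ms4a4c, base 447: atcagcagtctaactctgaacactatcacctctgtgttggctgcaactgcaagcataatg
Ms4a4c, base 825: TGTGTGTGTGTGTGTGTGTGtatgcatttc
Ms4a4c, base 959: caacactttaacatcctccattaattgtat

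Ms4a4c was higher in case at the probes without the repeat, by about 3-fold. The probe at base 447 read -0.07, -0.25 and -0.49 in control 1, 2 and 3 and 1.73, 1.04 and 1.05 in case 1, 2 and 3. All 3 case arrays lay above all 3 control arrays. The difference was 1.54 on the log2 scale (SE 0.23), which is 2.91-fold. The probe at base 959 read 0.47, -0.30 and -0.18 in control and 2.29, 1.47 and 1.38 in case. Its groups did not overlap either, and the difference was 1.71 (SE 0.31), or 3.28-fold. Leaving out 1 array at a time kept these differences between 1.31 and 1.66 at base 447 and between 1.43 and 1.95 at base 959. Before scaling, the intensities at base 447 were 252, 212 and 193 in control and 435, 136 and 334 in case. At base 959 they were 366, 205 and 241 in control and 639, 184 and 422 in case. At both probes, the separation of case 2 from control thus rests on the scaling to the array percentile. In bulk RNA, fewer cells of a type and less RNA per cell cannot be told apart.

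The third Ms4a4c probe, which holds the repeat, differed by less between the groups. It read 6.20, 6.23 and 6.47 in control and 6.60, 6.61 and 6.66 in case. The case arrays all lay above the control arrays, by a difference of 0.33 (SE 0.15), or 1.25-fold. The probe represents Ms4a4c wherever a gene is read by its brightest probe, and the mean of the 3 probes gave 1.19. The differences at the 3 probes spanned 1.39, against a median span of 0.32 among 4543 genes with several tested probes, and 2.38% of those genes had a wider span.

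Other probes that hold a run of at least 28 bases of G and T, or of its complement, were looked for after the Ms4a4c values had been seen. There were 36 such probes, and 36 of 36 were well above background on all 6 arrays, compared with 37.1% of all probes. In 29 of them the run was on the same strand as in Ms4a4c, and their differences lay between 0.12 and 0.28. In the other 7 the run was the complement, C and A, and the differences lay between 0.81 and 1.00. No repeat probe passed the 2-fold threshold with an unadjusted p of at most 0.05. Among 15665 other genes well above background on all 6 arrays, the 3 whose pattern over the arrays was closest to the Ms4a4c repeat probe were Spag7, Hemgn and Ung. Their root mean square differences, taken after each gene was centred on its own mean, were 0.021, 0.029 and 0.034, against a median of 0.33. All 3 were read by a probe with such a repeat, of 30, 36 and 34 bases, of which 30 bases of each probe are shown with the repeat in capitals.
Spag7: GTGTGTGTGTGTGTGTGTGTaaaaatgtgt
Hemgn: atagacaataGTGTGTGTGTGTGTGTGTGT
Ung: agatttcaaaGTGTGTGTGTGTGTGTGTGT

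**Figure D1:**
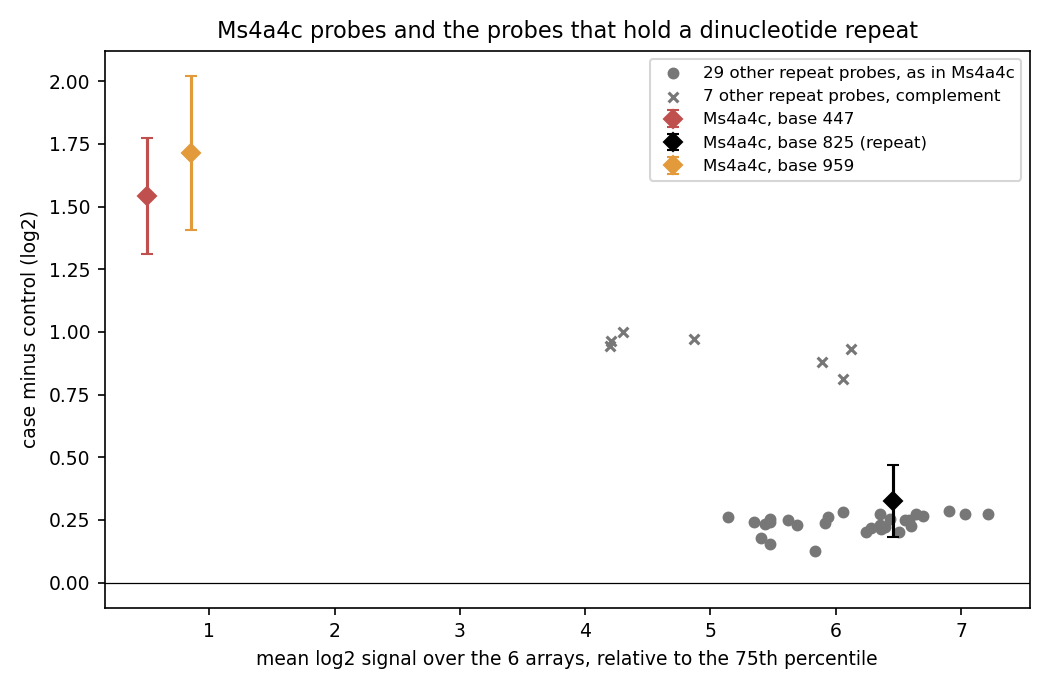
Mean log2 signal over the 6 arrays (x axis) against the case minus control difference (y axis, log2) for the 3 Ms4a4c probes (diamonds, error bar SE) and the 36 other probes with a repeat of at least 28 bases, with the run on the same strand as in Ms4a4c (dots) or its complement (crosses). The probe at base 825 sits beside the 29 dots, at 0.33, while the probes at bases 447 and 959 sit at 1.54 and 1.71.

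Ms4a4b was higher in case at both of its probes, by 3.29-fold and 3.95-fold. The probe at base 268 of its transcript, which the array lists under an Ensembl transcript and describes as Ms4a4b, lies at chr19:11532299-11532358 in mm9. It read -1.99, -2.20 and -2.22 in control and 0.03, -0.33 and -0.17 in case. The groups did not overlap, and the 3 case arrays were close to each other. The difference was 1.98 (SE 0.16), and it lay between 1.89 and 2.07 with 1 array left out at a time. Intensities before scaling were 66.1, 54.9 and 58.3 in control and 133, 52.9 and 144 in case, so case 2 lay below the control arrays before scaling.

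The probe at base 848, at chr19:11537629-11537688, read -2.14, -3.25 and -2.98 in control and -1.82, -1.78 and 0.39 in case. The groups did not overlap, but case 3 stood well above the other 2 case arrays. Intensities before scaling were 59.9, 26.6 and 34.5 in control and 37.0, 19.4 and 213 in case. Before scaling, case 1 thus lay within the range of the control arrays and case 2 below it. The difference was 1.72 (SE 0.61), and without case 3 it was 0.99. After normexp background correction with quantile normalization, the difference at this probe was 0.68, and at base 268 it was 1.06. With all arrays, the 2 probes gave differences of like size with a different spread over the case arrays. Without case 3, the difference at base 268 was 1.99, against 0.99 at base 848.

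The T cell markers Thy1 and Cd3d were among the 3 genes closest in pattern to the Ms4a4b probe at base 848. The closest was Thy1, a surface glycoprotein of T cells, with a root mean square difference of 0.33, and next was Cd3d, a chain of the T cell receptor complex, at 0.48. The median over all genes was 1.22. Thy1 read -2.14, -3.29 and -3.75 in control and -1.57, -1.73 and 0.51 in case, so case 3 was again the highest. For Cd3d the values were -2.10, -3.30 and -2.78 in control and -2.54, -1.14 and -0.28 in case. Cd8a and Cd8b1 were well above background on 1 array alone, case 3. Other genes of the T cell list did not peak on case 3. Cd4 read 0.50, 0.81 and 0.83 in control and 0.81, 1.52 and 0.79 in case. Zap70 read -1.76, -0.87 and -0.95 in case, highest on case 2. The closest genes to the probe at base 268 were Lrrk2, a kinase, at 0.14 and Rgs12, a regulator of G protein signalling, at 0.25, and no T cell marker was among its closest 3. Rgs12 was also among the 3 closest genes of the Ms4a4c probes at bases 447 and 959, at 0.167 and 0.237, and Cd72 was at 0.235 from the latter.

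**Figure D2:**
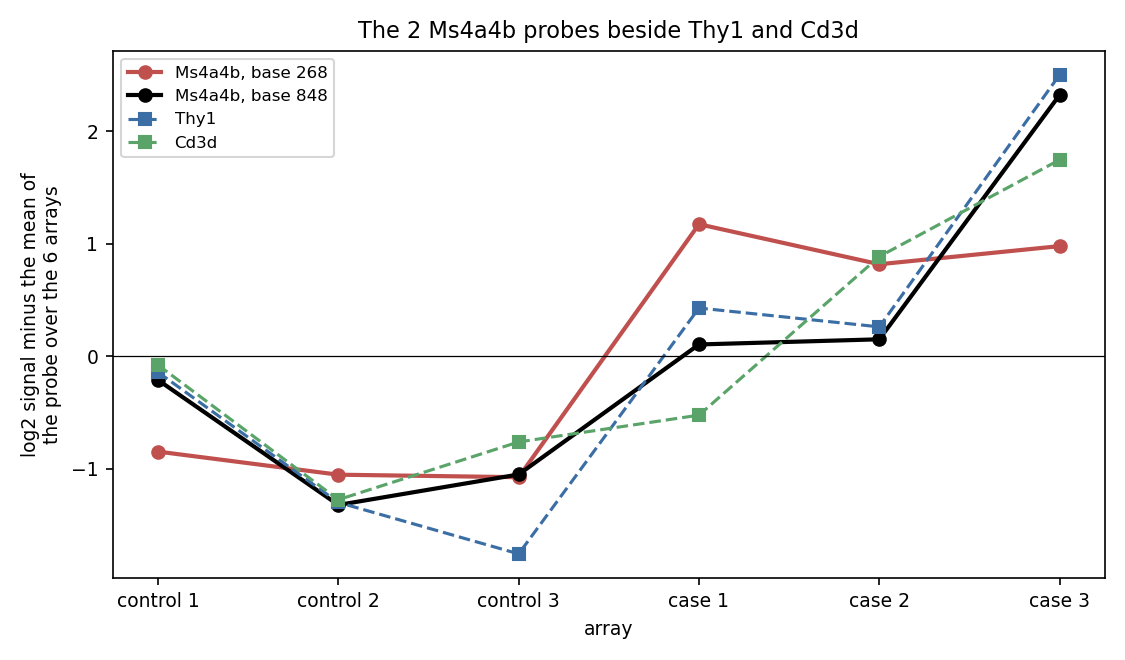
Log2 signal of each probe minus its mean over the 6 arrays (y axis) on each array (x axis) for the 2 Ms4a4b probes (solid lines) and for Thy1 and Cd3d (dashed lines). The probe at base 848, Thy1 and Cd3d peak on case 3, whereas the probe at base 268 is at a like height on all 3 case arrays.

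Over the whole T cell list, 11 of 18 genes were tested and 3 changed at least 2-fold with an unadjusted p of at most 0.05, all higher in case, compared with 2.26% of all genes. These were Thy1 (2.13, SE 0.66, adjusted p 0.135), Cd3d (1.41, SE 0.57, adjusted p 0.188) and Zap70, a T cell receptor kinase (1.23, SE 0.34, adjusted p 0.123), by limma with Benjamini-Hochberg adjustment over all genes. None of the 3 passed an adjusted p of 0.05. The count was 0 after normexp with quantile normalization, 1 by the methods' t-test, 4 without control 1 and 5 with no filter on dim probes. With the replicate number as a block it was 2, since Cd3d no longer passed (limma unadjusted p 0.0799), and Cd3d also did not pass after quantile normalization, in the deposited log2 values, with no filter on dim probes, by the methods' t-test, or without control 2, control 3, case 2 or case 3. Thy1 did not pass by the methods' t-test, and its difference was 1.41 without case 3. Zap70 did not pass after normexp with the 75th percentile (0.86). Cd3e differed by 0.60 (adjusted p 0.127) and Cd3g by -0.28 (adjusted p 0.400). The median of the list was 0.60, against -0.12 for all genes. Bcl11b and Trat1 were not well above background on any array. The summed level of the list, in which Cd2 alone read 8.02 to 8.07 in control and 7.69 to 8.16 in case, lay between 8.07 and 8.15 in control and between 7.81 and 8.26 in case. The part of T cells in the Ms4a4b values was not tested.

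Ms4a1, which encodes CD20, overlapped between the groups. It read 8.54, 8.46 and 8.55 in control and 8.66, 8.29 and 8.36 in case, at chr19:11325367-11325426 on the minus strand. The highest array was case 1 and the lowest was case 2, so the groups overlapped. The difference was -0.07 (SE 0.16). It was lower under 4 of the 5 other scalings, at -0.40 after quantile normalization, -0.41 in the deposited log2 values and -0.43 and -0.42 after normexp with the 75th percentile or with quantile normalization. After scaling on the median of detected probes it was 0.02. The genes closest to it in pattern were Thap3, Tapbp and Fam48a, at root mean square differences of 0.013, 0.019 and 0.039.

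Lists of genes around CD20 were read beside Ms4a1. Among 8 transcription factors known to act on Ms4a1 or on B cell genes at large, 0 of 8 changed at least 2-fold with an unadjusted p of at most 0.05, where 3.52% of all genes did, and the median was -0.13 against -0.12 for all genes. Among these, Irf8 differed by 0.69 (SE 0.14, adjusted p 0.0972), the value nearest to the threshold, while Spi1, listed as Sfpi1, gave -0.03 and Irf4 -0.30. In the list for the antigen receptor and calcium entry, 0 of 20 tested genes passed, and 17 of 20 had a negative difference, with a median of -0.18, also beside -0.12 for all genes. Among its first genes, Cd81 differed by -0.51 and Cr2 by 0.24. Of 17 B cell markers, 1 passed, which was Cd72, an inhibitory receptor of B cells, at 1.42 (SE 0.27, adjusted p 0.0941). Cd79a and Cd79b, the signalling chains of the B cell receptor, gave -0.05 and 0.28. The summed level of the B cell list lay between 10.54 and 10.63 in control and between 10.51 and 10.77 in case.

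Of the members known from myeloid cells, Ms4a6c was higher and Ms4a7 lower in case on average, and both overlapped with control. Ms4a6c, at chr19:11545580-11545639, read 2.13, 2.67 and 2.11 in control and 3.52, 3.13 and 2.32 in case. Case 3 lay below control 2. The difference was 0.68 (SE 0.32), or 1.61-fold, and it ran from 0.42 without case 1 to 1.02 without case 3. After normexp with the 75th percentile it was 0.39. Ms4a7, at chr19:11395903-11395962, read 0.48, 0.36 and 0.27 in control and 0.28, -0.36 and -0.74 in case. Only case 1 reached the range of the control arrays, above control 3. Its difference was -0.64 (SE 0.26), so it was 1.56-fold lower in case, and the value lay between -0.92 and -0.41 with 1 array left out at a time. Among the genes closest to Ms4a7 in pattern was Il17rb, a cytokine receptor chain, at 0.125. For Ms4a6c the closest named gene was D330050I16Rik, at 0.163.

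Ms4a6b, at chr19:11604834-11604893, read -3.82, -4.06 and -3.82 in control and -1.90, -4.66 and -2.99 in case. It was well above background on all 3 control arrays and not on case 2, which was also the lowest value. The difference was 0.72 (SE 0.61), and it ran from 0.07 to 1.45 as each array was left out. Ms4a6d, at chr19:11661426-11661485, read -2.98, -3.33 and -3.99 in control and -3.00, -2.54 and -3.15 in case. It was well above background on 2 arrays of each group, the values overlapped, and the difference of 0.54 was not fitted. Ms4a4d, at chr19:11629387-11630711, was not well above background on any array, with values from -6.69 to -5.90 in control and from -5.86 to -4.58 in case, and no fold is given.

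Family probes without a detected signal also read higher in case. The 12 probes for 9 family genes that were not well above background on any array had control means between -6.56 and -5.17 and case means between -5.42 and -4.25. Their differences ran from -0.01 to 1.26, and 11 of 12 were above 0. The dimmest signal still well above background ranged from -4.48 to -3.98 over the control arrays, and from -3.67 to -2.40 over the case arrays. Ms4a6b and Ms4a6d lay near this limit, and both Ms4a4b probes lay above the limit of the same array on all arrays. At base 848 of Ms4a4b, however, control 2 (-3.25) and control 3 (-2.98) read below the limit of case 2 (-2.40). The part of this background in the values of the dim members was not tested.

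**Figure D3:**
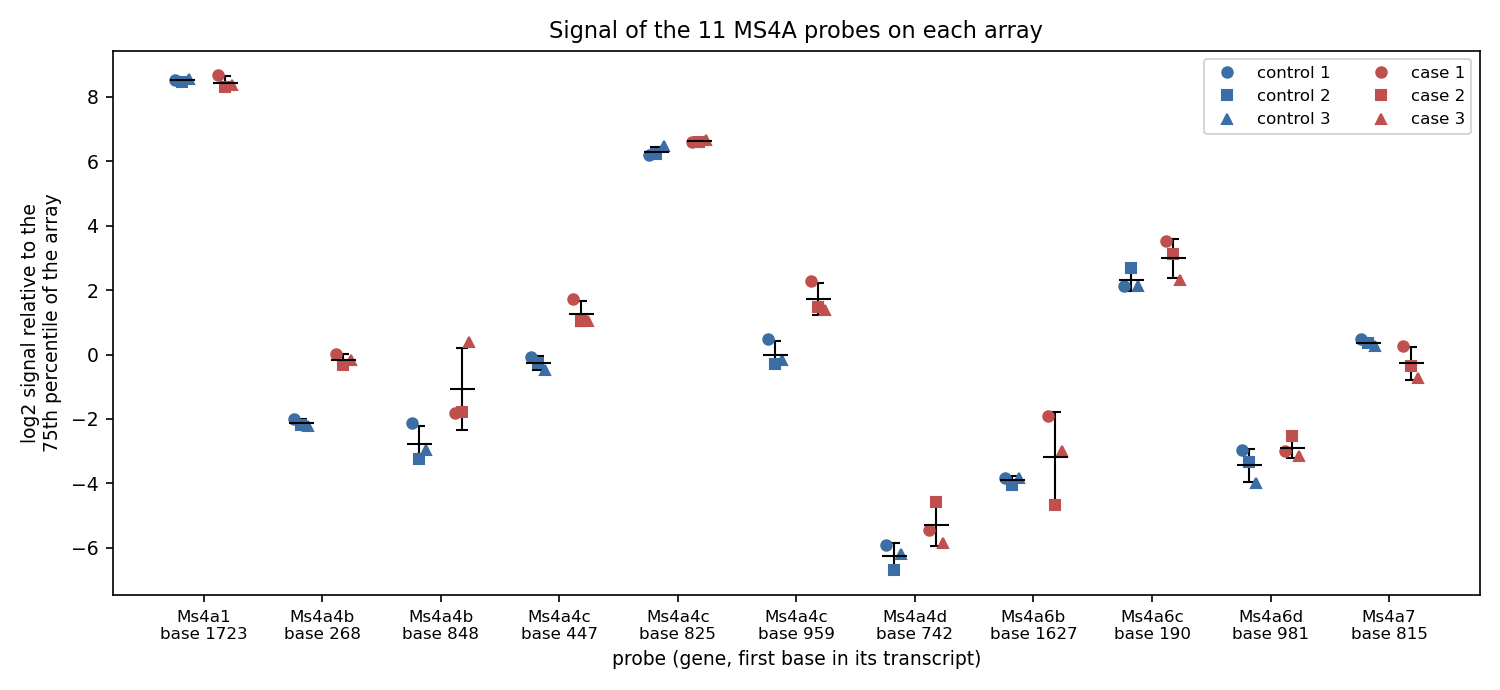
Log2 signal relative to the 75th percentile of the array (y axis) for the 11 probes (x axis, gene and first base of the probe in its transcript), with 3 control arrays in blue, 3 case arrays in red, and bars for the mean and SD. The groups are apart at both Ms4a4b probes and the 3 Ms4a4c probes and overlap at Ms4a1, Ms4a6b, Ms4a6c, Ms4a6d and Ms4a7. They are also apart at Ms4a4d, which was not well above background on any array.

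Of the 8 genes, 1 changed at least 2-fold with an unadjusted p of at most 0.05 when each name in the files was read by its brightest probe, which was Ms4a4b. Among all genes 3.52% did so, and 0.0384% passed an adjusted p of 0.05. With every probe read on its own, 4 of the 9 tested probes did, 2 of Ms4a4b and 2 of Ms4a4c, compared with 3.63% of all tested probes. The Ms4a4b probe at base 848 fell short of this threshold after quantile normalization alone or after normexp, in the deposited log2 values, by the methods' t-test, and without control 2, control 3 or case 3. The case arrays lay above the control arrays without overlap at 5 of the 9 tested probes, against 15.6% of all probes. Since the genes were chosen with these differences in view, nothing is read from these counts.

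**Figure D4:**
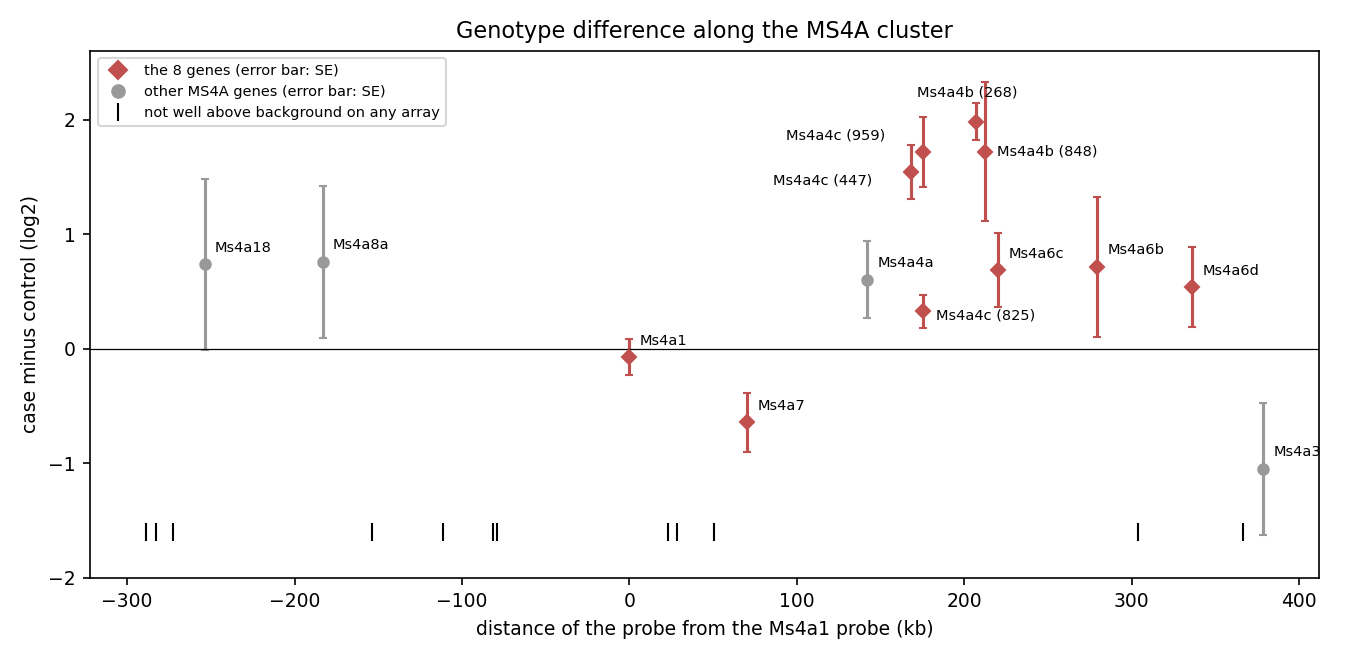
Case minus control difference (y axis, log2, error bar SE) of each probe of the MS4A cluster against its distance from the Ms4a1 probe (x axis, kb), for the 8 genes (red diamonds) and other MS4A genes (grey dots), with ticks for probes not well above background on any array. The Ms4a4c and Ms4a4b probes, next to each other in the cluster, sit highest apart from the Ms4a4c repeat probe at 0.33.

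Other family genes were mostly not detected. Of 14 further genes on the array, 5 were tested and 8 were nowhere well above background. Tmem176a and Tmem176b, relatives on chromosome 6 known from myeloid cells, were lower in case by 1.16 (SE 0.19, adjusted p 0.0809) and 1.21 (SE 0.24, adjusted p 0.0961), more than 2-fold each with the groups apart. Tmem176a read 0.00, 0.57 and 0.32 in control and -1.06, -0.80 and -0.72 in case. Over the scalings tried, Tmem176a lay between -1.20 and -0.71 and Tmem176b between -1.39 and -0.96, and the second Tmem176b probe between -1.42 and -0.42. Tmem176a was no longer 2-fold lower under either normexp setting, nor Tmem176b after normexp with quantile normalization. Ms4a3, known from granulocyte precursors, differed by -1.05 (SE 0.58, adjusted p 0.278) and its sign turned under another scaling, to 0.22, Ms4a8a by 0.76 (adjusted p 0.464) and Ms4a4a by 0.60 (adjusted p 0.281). In the macrophage list 16 of 18 genes were tested, and Lyz2, a lysozyme, and Mrc1, a mannose receptor, were lower by 1.08 each (adjusted p 0.164 and 0.110), against 1.27% of all genes lower in case. Neither passed without case 1 or after scaling on the median of detected probes, Mrc1 did not pass without case 2 or under either normexp setting, and Lyz2 did not pass without control 1, control 2 or case 3, after quantile normalization alone or after normexp, in the deposited log2 values or by the methods' t-test. Emr1, Cd14 and Csf1r differed by -0.16, -0.08 and -0.31. The median of that list was -0.27, and its summed level lay between 6.30 and 7.41 in control and between 6.45 and 7.06 in case. The part of other cells in the values of Ms4a6c and Ms4a7 was not tested.

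Promoters of the neighbouring members were read to show what the genes share in sequence. The RefSeq promoter table (GRCm38.p6, 250 bases before to 50 after a start) held 6 of the 8 genes, all but Ms4a1 and Ms4a6d. The Ms4a4c and Ms4a4b windows aligned over 193 columns with 168 identical bases, and the Ms4a6c and Ms4a6b windows over 223 columns with 185 identical. The pairs were of 7 entries, since Ms4a7 was listed more than once. In the other 19 pairs of entries, which include Ms4a7 against itself, the best alignment had at most 82 columns. Ms4a4c and Ms4a4b are shown for the 130 bases before the start, at chr19:11407531-11407660 and chr19:11443428-11443557, plus strand, with their longest shared run of 20 bases in capitals.
Ms4a4c: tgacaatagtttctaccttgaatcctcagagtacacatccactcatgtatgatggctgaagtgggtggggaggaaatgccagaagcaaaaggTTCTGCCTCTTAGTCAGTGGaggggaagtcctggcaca
Ms4a4b: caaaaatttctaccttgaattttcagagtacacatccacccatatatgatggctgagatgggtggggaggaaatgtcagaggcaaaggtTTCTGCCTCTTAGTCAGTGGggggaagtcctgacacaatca

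The Ms4a6c and Ms4a6b promoters share a longer run, of 48 bases, and the letters GAAAGTGAA, both in capitals below, in 150 bases each at chr19:11469218-11469367 and chr19:11518349-11518498, plus strand. The run begins at position -49 of Ms4a6c and -118 of Ms4a6b, counted from the transcript start. GAAAGTGAA, searched on both strands, was in 0.581% of all 32851 promoters of the same length. The looser GAAANNGAA, which takes in the former and is the core of the interferon-stimulated response element, was in 8.56% of all promoters and in 3 of the 6 members, Ms4a6b, Ms4a6c and Ms4a7. AGGAAGT, which lies in the 48-base run, was in 9.35% of all promoters and in these 2 members alone. The octamer ATGCAAAT was in Ms4a4c and in 1.74% of all promoters. The letters were chosen after the sequences had been seen, and a match is a description of these windows.
Ms4a6c: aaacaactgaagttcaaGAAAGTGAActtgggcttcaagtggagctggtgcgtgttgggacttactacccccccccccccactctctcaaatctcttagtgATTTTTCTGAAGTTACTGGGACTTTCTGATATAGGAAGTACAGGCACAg
Ms4a6b: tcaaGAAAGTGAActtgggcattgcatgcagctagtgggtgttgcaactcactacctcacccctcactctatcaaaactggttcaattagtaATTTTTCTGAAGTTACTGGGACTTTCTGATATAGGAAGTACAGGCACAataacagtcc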

How the data were processed

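The authors deposited, per the labels and file headers, spot intensities of 6 one-colour arrays from Agilent Feature Extraction 10.7.1.1, and 1 table of log2 values, used here as an alternative. From the processed intensity of 59305 non-control spots, log2 values were computed and centred on the 75th percentile per array. Spots marked as outliers were left out (163 to 251 per array) and spots of a probe averaged. No spot was saturated, and all arrays were on 1 slide with 1 scan. Tests covered probes that the scanner software marked well above background on every array of at least 1 group, and the brightest tested probe stood for each of 18252 gene names. Groups were compared with limma 3.58.1 in R 4.3.3, without covariates, with Benjamini-Hochberg adjustment. The number of arrays limits the precision.

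All 8 genes and probes are named. From a list, called genes (up to 4 per direction) and the first 3 are named, and for each member above background on 6 arrays the 3 genes nearest in pattern. Some genes that this rule covers are not reported here. Members and lists were chosen with earlier results of these data known. Gene names are those of the files, and probe coordinates are in mm9. Promoters were aligned locally with Biopython. The steps were tested on simulated data.

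Same-numbered case and control arrays deviated together over 15666 genes (correlations 0.211, 0.106 and 0.177). The number was therefore used as a block in an alternative setting, while the main fit had no block. This pairing rests on the data and not on the labels. With the number as a block, 4 genes passed an adjusted p of 0.05 in place of 7, and Cd3d lost its 2-fold call. Summed signals are given for the B cell, T cell and macrophage markers.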

Additional observations from a re-analysis of the deposited data

How the results depend on the processing

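Among all genes, 643 changed at least 2-fold with an unadjusted p of at most 0.05 and 7 passed the adjusted p. Quantile normalization gave 23 adjusted calls, the deposited log2 values 22, normexp with the 75th percentile 189 and 6436, normexp with quantile normalization 163 and 13, no filter on dim probes 10640 and 2 (with the median of all genes shifted by 0.52), the filter on all 6 arrays 26, the mean of the probes 11, every probe on its own 20, and the methods' t-test 2. The replicate block gave 4 adjusted calls and ended the call of Cd3d; the other called genes of the lists and the called member probes kept theirs. Leaving out 1 array gave 601 to 1148 and 2 to 112 calls, the highest without case 3. Of the 8 genes 1 passed, and 2 did with the mean of the probes, with every probe on its own, and with the probes holding a repeat left out, a setting chosen after seeing the data. Leaving out 1 array gave 1 to 2, with Ms4a6b added without case 2 and Ms4a6c without case 3. Signs turned for Ms4a1 (0.020, median of detected probes), the Ms4a4c repeat probe (-0.0053, normexp with the 75th percentile) and Ms4a6d (-0.0022, normexp with quantile normalization); the cause was not tested. Levels near the background limit restrict what Ms4a6b, Ms4a6d and Ms4a4d can show.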

Other observations

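Of the remaining marker lists, 0 of 8 tested B1a genes changed at least 2-fold with an unadjusted p of at most 0.05, where 3.52% of all genes did (2.26% higher and 1.27% lower in case), with a median of -0.15; Cd5 gave -0.23, Itgam 0.79 and Spn 0.42. In the list for dendritic cells 2 of 8 genes were tested, and Batf3 was lower in case, at -1.42 (SE 0.46, limma adjusted p 0.141), while Flt3 and Zbtb46 were well above background on 1 array each and Xcr1 on none. Batf3 did not pass without control 2 or case 1, under either normexp setting or by the methods' t-test. In the plasma cell list 5 of 6 were tested, and Igj, the joining chain of secreted antibodies, was lower at -1.92 (SE 0.59, adjusted p 0.135). Igj did not pass the threshold by the methods' t-test, and its difference was -1.33 without case 2 and -2.62 without case 3. Xbp1 gave -0.52 and Prdm1 -0.48, and Sdc1 was not well above background on any case array. In the granulocyte list 2 of 8 on the array were tested, and Camp, an antimicrobial peptide, was higher at 1.13 (SE 0.33, adjusted p 0.130). Camp did not pass without case 2, by the methods' t-test, after quantile normalization (0.92), in the deposited log2 values (0.92) or under either normexp setting (0.76 and 0.32). The lists for NK cells and mast cells had 2 and 4 tested genes, and 0 of them passed; Ncr1, Klrb1c and Klrd1 were not well above background on any array, and Cpa3 differed by -1.27 (adjusted p 0.290).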
